A study of Mus musculus with 6 samples.

Results

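The genes described here are 10 feedback and output genes of the RAS-ERK pathway: *Spry1*, *Spry2*, *Spry4*, *Spred1*, *Spred2*, *Dusp4*, *Dusp5*, *Dusp6*, *Etv4* and *Etv5*. They are taken by name, as genes downstream of VEGFR-3, and are 10 of the 55401 genes listed. All 10 were found, and all 10 passed the filter on low counts. RNA was sequenced from dural lymphatic endothelial cells (LECs), which form the wall of lymphatic vessels and were sorted from the outer membrane around the brain. Mice received an adeno-associated virus (AAV) encoding VEGF-C (AAV-VEGF-C, 3 libraries) or a control virus (AAV-CTRL, 3 libraries), and the experiment was carried out 3 times, once for each replicate number.

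Per the labels, all mice were WT. The study's methods describe male C57BL/6J mice injected at 4 weeks of age into the cisterna magna, a pool of cerebrospinal fluid at the base of the brain, with serotype 9 vectors. AAV-VEGF-C carried full-length mouse VEGF-C. AAV-CTRL carried a soluble piece of mouse VEGFR-3 made of its immunoglobulin domains 4 to 7, which the study describes as not binding VEGF-C. Both groups thus received a vector and neither was left uninjected. The methods give 10 to 12 mice for each AAV-treated group. The study's figure legend for this sort gives more mice a group, over independent experiments, so 10 to 12 was read as the number for each library. Cells positive for CD31, Podoplanin and LYVE-1 and negative for CD45, the leukocyte antigen encoded by *Ptprc*, were sorted from their meninges. The interval from injection to the sort of these cells is not given in the sources used here. A library is thus RNA of pooled animals, and in such bulk RNA fewer cells of a type and less RNA per cell cannot be told apart.

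VEGF-C binds VEGFR-3, the receptor encoded by *Flt4*, and VEGFR-3 signals in part through RAS, RAF, MEK and ERK. ERK activity raises the transcription of its own inhibitors. Sprouty and SPRED proteins act upstream on RAS and RAF, dual-specificity phosphatases (DUSPs) remove phosphate from ERK and related kinases, and ETV4 and ETV5 are ETS-family transcription factors often used as transcript readouts of FGF and RAS-ERK signalling. RNA levels of such genes are read as outputs of the pathway, and they are not a measurement of phosphorylated ERK.

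The libraries differed in depth and background before any gene was compared. Total counts, the sum of the reads assigned to genes, ran from 6530269 to 12399498 in AAV-CTRL but from 564475 to 3261935 in AAV-VEGF-C, so that depth and treatment cannot be told apart. Reads in 1935 genes with no known role in endothelium (odorant, pheromone and bitter taste receptors, defensins and keratin-associated proteins) took 159 to 293 counts scaled to the library total (CPM) in AAV-CTRL against 2884 to 7053 CPM in AAV-VEGF-C. They are called background here, and their density was 0.241 to 0.335 counts per kb of exon in AAV-CTRL against 0.678 to 1.60 in AAV-VEGF-C. Multiplied by a gene's exon length, this density gives an estimate of the count that background alone would put on that gene. The estimate takes background to lie evenly over the exons of all genes, which was not tested. The lymphatic markers *Prox1* (3.15 to 14.1 TPM, transcripts scaled for length and library total), *Lyve1* (9.61 to 42.0 TPM) and *Ccl21a* (82.1 to 352 TPM) were present in all 6 libraries, as were the fibroblast genes *Col1a1* (109 to 910 TPM) and *Col1a2* (106 to 790 TPM).

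None of the 10 feedback genes passed the test for a difference between AAV-VEGF-C and AAV-CTRL. The edgeR quasi-likelihood test with Benjamini-Hochberg adjustment over 17459 genes called 0 of 10 higher and 0 of 10 lower at an adjusted p of 0.05, against 10.5% of all tested genes called higher and 0.659% called lower. DESeq2 and limma on log2 TPM also called 0 of 10, and limma voom with sample weights called 1, *Etv4*. At an unadjusted p of 0.05 the edgeR test put 4 past the threshold, 2 of them higher (*Dusp4* and *Etv4*) and 2 lower (*Spry2* and *Dusp5*), against 19.0% of all tested genes higher and 9.11% lower. The median log2 fold change of the 10 genes was -0.19, beside -0.0037 over all tested genes and -0.41 over the 7234 tested genes averaging at least 5 TPM. Scaling on the 2000 most abundant genes moved the median of all tested genes from -0.0037 to 0.35 and that of the 10 genes to 0.16, so the sign of a change near 0 depends on the scaling.

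**Figure D1:**
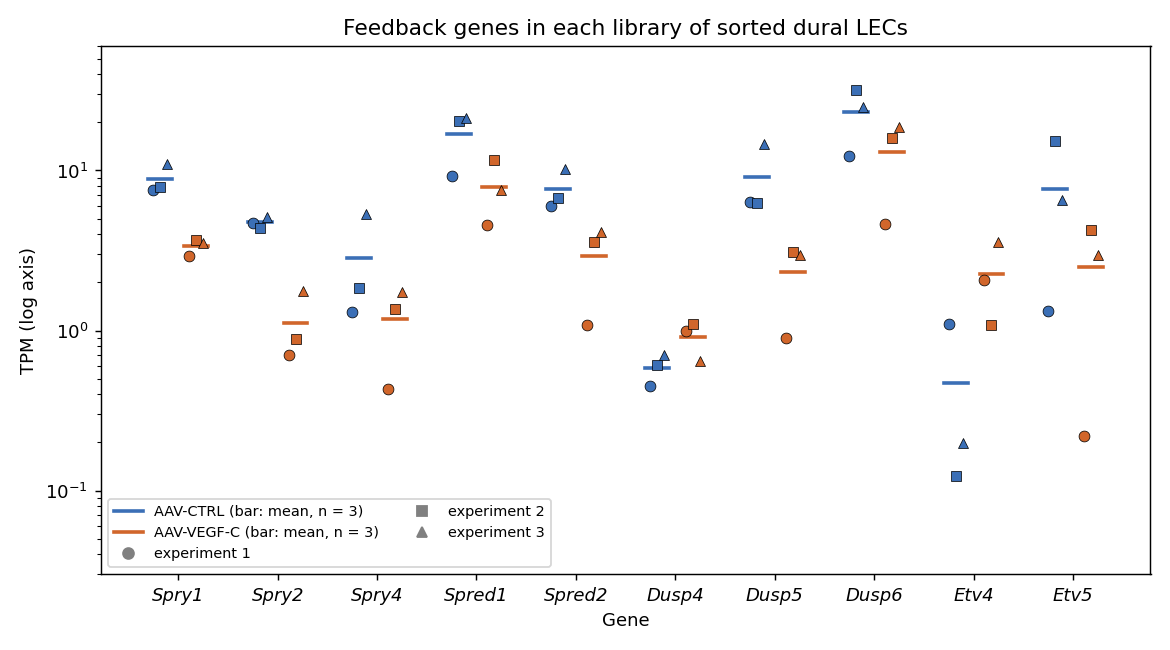
TPM (log axis) of each feedback gene in each library, with bars at the group means (n = 3) and symbol shapes for the experiments. The means of *Dusp4* and *Etv4* were higher in AAV-VEGF-C and those of the other 8 genes were lower.

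The TPM values, which are corrected for gene length and library total, gave the order of the genes within a group. In AAV-CTRL *Dusp6* had the highest mean (23.0 ± 9.92 TPM, SD, n = 3), followed by *Spred1* (16.9 ± 6.67), *Dusp5* (9.09 ± 4.80), *Spry1* (8.79 ± 1.90), *Etv5* (7.71 ± 7.07), *Spred2* (7.66 ± 2.28), *Spry2* (4.74 ± 0.368), *Spry4* (2.84 ± 2.19), *Dusp4* (0.587 ± 0.130) and *Etv4* (0.472 ± 0.539). Neighbours in this order overlapped over the 3 libraries except for *Spred2* above *Spry2* and *Spry4* above *Dusp4*. In AAV-VEGF-C *Dusp6* (13.1 ± 7.46 TPM) and *Spred1* (7.92 ± 3.54) again came first, and *Spry2* (1.11 ± 0.563) and *Dusp4* (0.913 ± 0.234) came last. There only *Spred1* and *Spry1* (3.38 ± 0.389) were neighbours whose values did not overlap.

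Mean TPM was lower in AAV-VEGF-C for 8 of the 10 genes, and the median log2 ratio of the mean TPM was -1.32 for the 10 genes and -1.37 for tested genes averaging at least 5 TPM. Every AAV-VEGF-C library lay below every AAV-CTRL library in TPM for 4 of the 10 genes (*Spry1*, *Spry2*, *Spred2* and *Dusp5*), as for 36.4% of all tested genes, and above for 0 of 10, against 12.8%. In CPM scaled by TMM, the library factors that edgeR uses, 3 genes did not overlap on the lower side (*Spry2*, *Spred2* and *Dusp5*, 17.6% of tested genes) and 2 on the higher side (*Dusp4* and *Etv4*, 22.3%). *Etv4* passed the filter on low counts through the AAV-VEGF-C libraries alone, so its place on the higher side was largely set by that filter.

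Promoter sequence is shown for *Spry2* and *Dusp5*, the members with the lowest fold changes, and for *Dusp6*, the member with the highest level. Each is RefSeq sequence of GRCm38.p6 upstream of the transcription start, written in the direction of the gene, with capitals where a searched motif matches. The motifs, sought on both strands, were the ETS site CCGGAA, the AP-1 site TGANTCA, the cyclic AMP response core ACGTCA and the CArG box of serum response factor. Shorter ETS matches such as GGAA alone were not searched for. Of 32851 promoter windows of 250 bases, 12% held CCGGAA, 6.75% the AP-1 site, 6.47% ACGTCA and 1.47% a CArG box.
Spry2, chr14:105896820-105897069, minus strand: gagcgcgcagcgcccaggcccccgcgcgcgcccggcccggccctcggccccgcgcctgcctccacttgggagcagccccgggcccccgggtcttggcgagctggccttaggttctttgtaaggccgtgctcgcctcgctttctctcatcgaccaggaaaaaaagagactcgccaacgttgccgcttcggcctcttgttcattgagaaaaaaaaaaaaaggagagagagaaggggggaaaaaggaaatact
Dusp5, chr19:53528895-53529108, plus strand: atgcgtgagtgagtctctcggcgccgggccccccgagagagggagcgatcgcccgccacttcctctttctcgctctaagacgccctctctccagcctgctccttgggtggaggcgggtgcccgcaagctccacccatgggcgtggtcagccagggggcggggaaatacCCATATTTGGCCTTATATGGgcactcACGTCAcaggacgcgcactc
Dusp6, chr10:99262981-99263230, plus strand: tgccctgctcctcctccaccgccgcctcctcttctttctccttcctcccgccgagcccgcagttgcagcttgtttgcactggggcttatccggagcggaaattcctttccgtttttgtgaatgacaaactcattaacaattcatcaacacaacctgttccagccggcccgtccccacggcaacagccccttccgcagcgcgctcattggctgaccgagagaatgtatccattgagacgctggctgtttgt
The *Dusp5* stretch held 2 CArG matches side by side and 1 ACGTCA match. None of the motifs was found in the *Spry2* and *Dusp6* stretches, nor in those of *Spry1*, *Spred1*, *Spred2* and *Etv5*. The stretches searched were 101 (*Etv5*) to 250 bases long, shorter where RefSeq and GENCODE place the start differently. A match describes letters and is not a measured binding site. The stretches of *Spry4*, *Dusp4* and *Etv4* are not shown.

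The Sprouty genes encode inhibitors that are phosphorylated after receptor activation and damp RAS-ERK signalling. *Spry1* (ENSMUSG00000037211.12, GRCm38 chr3:37639947-37644598, plus strand) was measured at 7.53, 7.87 and 11.0 TPM in AAV-CTRL 1, 2 and 3 and at 2.94, 3.67 and 3.52 TPM in AAV-VEGF-C 1, 2 and 3. The groups did not overlap in TPM, but in TMM-scaled CPM they did (43.8, 39.2 and 30.6 against 48.5, 30.1 and 23.3). Its log2 fold change in the edgeR test was -0.21 (SE 0.35, adjusted p = 0.741). The gene overlaps *Gm42922* on the other strand, and since the use of strand in counting is not given in the sources used here, its counts are uncertain.

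*Spry2* (ENSMUSG00000022114.5, chr14:105891947-105896819, minus strand) was the Sprouty gene with the lowest fold change. Its TPM was 4.68, 4.40 and 5.13 in AAV-CTRL, a narrow spread, and 0.701, 0.880 and 1.75 in AAV-VEGF-C. The AAV-VEGF-C values rested on 3, 6 and 23 counts, where background alone gives 1.42, 1.91 and 3.34, while AAV-CTRL had 96, 100 and 148 counts. The 3 counts of AAV-VEGF-C 1 are 5.32 CPM with a 95% Wilson interval from 1.81 to 15.6, which reaches the 14.7 CPM of AAV-CTRL 1. The log2 fold change was -1.11 (SE 0.41, 95% interval -2.05 to -0.17, edgeR adjusted p = 0.123). Within experiments 1, 2 and 3 the difference was -1.11, -1.49 and -0.57 in log2 CPM, negative in each.

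*Spry4* (ENSMUSG00000024427.7, chr18:38586247-38601415, minus strand) had 1.31, 1.86 and 5.34 TPM in AAV-CTRL against 0.433, 1.37 and 1.73 TPM in AAV-VEGF-C. AAV-CTRL 3 stood above the other 5 libraries and the groups overlapped. The edgeR test put the log2 fold change at -0.18 (SE 0.42, edgeR adjusted p = 0.834), and it turned to 0.19 without AAV-CTRL 3. *Spry4* overlaps the small genes *Gm27369* and *Gm27804* on the other strand.

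SPRED proteins bind neurofibromin and bring it to the membrane, where it switches RAS off. *Spred1* (ENSMUSG00000027351.14, chr2:117121374-117182279, plus strand) had 9.18, 20.2 and 21.2 TPM in AAV-CTRL against 4.58, 11.6 and 7.54 in AAV-VEGF-C. The library of experiment 1 was the lowest of its group on both sides, and the groups overlapped. Its log2 fold change was -0.22 (SE 0.39, edgeR adjusted p = 0.762). *Spred2* (ENSMUSG00000045671.17, chr11:19924375-20024026, plus strand) had 6.02, 6.69 and 10.3 TPM in AAV-CTRL against 1.09, 3.58 and 4.11 in AAV-VEGF-C, with no overlap. Its log2 fold change was -0.42 (SE 0.25, edgeR adjusted p = 0.317), close to the median of -0.41 of tested genes averaging at least 5 TPM.

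The DUSP genes include nuclear phosphatases (*Dusp4* and *Dusp5*) and a cytoplasmic one (*Dusp6*), and *Dusp5* and *Dusp6* act mainly on ERK. *Dusp6* (ENSMUSG00000019960.8, chr10:99263231-99267489, plus strand) had 12.3, 31.8 and 25.1 TPM in AAV-CTRL against 4.62, 15.9 and 18.7 in AAV-VEGF-C, resting on 293 to 1031 and 21 to 242 counts. In TMM-scaled CPM the libraries of the same experiment lay side by side, with 47.1 against 48.5 in experiment 1, 109 against 111 in experiment 2 and 69.8 against 69.6 in experiment 3. The within-experiment differences were 0.04, 0.03 and -0.0045 in log2 CPM. The log2 fold change was 0.04 (SE 0.42, 95% interval -0.93 to 1.01, edgeR adjusted p = 0.973), and its sign turned under 10 of 19 alternative settings. This SE and interval include the spread between experiments. With experiment number as a block in the edgeR test, the log2 fold change was 0.02 (adjusted p = 0.967).

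*Dusp5* (ENSMUSG00000034765.6, chr19:53529109-53542431, plus strand) had 6.37, 6.27 and 14.6 TPM in AAV-CTRL against 0.893, 3.11 and 2.96 in AAV-VEGF-C. All 3 AAV-VEGF-C libraries lay below all AAV-CTRL libraries, on 6, 32 and 60 counts against 201, 214 and 570. The edgeR test put the log2 fold change at -0.83 (SE 0.31, 95% interval -1.55 to -0.11, edgeR adjusted p = 0.132). Its differences within experiments 1, 2 and 3 were -1.20, -0.24 and -1.15. It overlaps the antisense gene *AC137853.2*, and its reads cannot be told apart from those of that gene without strand.

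*Dusp4* (ENSMUSG00000031530.6, chr8:34807297-34819894, plus strand) had low levels throughout, with 0.449, 0.607 and 0.706 TPM in AAV-CTRL against 0.993, 1.10 and 0.649 in AAV-VEGF-C. The groups overlapped in TPM. In TMM-scaled CPM they did not (2.41, 2.80 and 2.17 against 16.2, 8.60 and 4.03). The AAV-VEGF-C libraries held 7, 12 and 14 counts, which is 3.77, 4.79 and 3.19 times the count background alone gives, while the AAV-CTRL counts of 15, 22 and 32 were 16.8 to 34.8 times background. Its log2 fold change was 1.80 (SE 0.62, 95% interval 0.36 to 3.25, edgeR adjusted p = 0.109). The difference was positive in each experiment (2.58, 1.51 and 0.80). With background subtracted the log2 fold change was 1.83 with a larger edgeR adjusted p of 0.363, and the part of background in it was not tested beyond this.

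ETV4 and ETV5 belong to the PEA3 group of ETS transcription factors. *Etv4* (ENSMUSG00000017724.14, chr11:101769742-101785371, minus strand) had the highest fold change of the 10 genes on the lowest counts. Its TPM was 1.09, 0.124 and 0.199 in AAV-CTRL against 2.07, 1.09 and 3.57 in AAV-VEGF-C, and AAV-CTRL 1 lay level with AAV-VEGF-C 2. The counts were 13, 4 and 8 against 3, 4 and 26. Background alone gives 2.11, 2.84 and 4.97 counts in AAV-VEGF-C, so AAV-VEGF-C 1 and 2 held 1.43 and 1.41 times background and AAV-VEGF-C 3 held 5.23 times. The log2 fold change was 2.49 (SE 0.80, 95% interval 0.64 to 4.33, edgeR adjusted p = 0.0888). All experiments gave a positive difference (1.58, 1.90 and 3.13). Only the AAV-VEGF-C libraries reached the minimum of the count filter, so this shared direction was largely set by the filter and is no support.

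*Etv4* passed the count filter only through the AAV-VEGF-C libraries, 3 of which and 0 of the AAV-CTRL libraries reached the minimum of 2.04 CPM, so that a higher value in that group was built into its being tested. With background subtracted it was no longer tested. It was called higher by voom with sample weights (log2 fold change 2.98, adjusted p = 0.0272) and by edgeR without AAV-CTRL 1 (3.34, adjusted p = 0.048), and its adjusted p ranged from 0.0272 to 0.283 over 16 alternatives.

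*Etv5* (ENSMUSG00000013089.15, chr16:22381309-22439719, minus strand) differed more between experiments than between groups. Its TPM was 1.32, 15.3 and 6.51 in AAV-CTRL against 0.219, 4.25 and 2.98 in AAV-VEGF-C, so that experiment 1 was the lowest and experiment 2 the highest in both groups. In TMM-scaled CPM the libraries of an experiment lay together at 4.98 and 4.62, 55.1 and 45.9, and 27.8 and 24.7. The value of AAV-VEGF-C 1 rested on 2 counts, below the 2.78 counts that background alone gives there. The edgeR test put the log2 fold change at -0.14 (SE 0.87, 95% interval -2.14 to 1.87, edgeR adjusted p = 0.947), and it turned to 0.63 without AAV-CTRL 2. This SE and interval include the spread between experiments. With experiment number as a block in the edgeR test, the log2 fold change was -0.20 (adjusted p = 0.701).

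**Figure D2:**
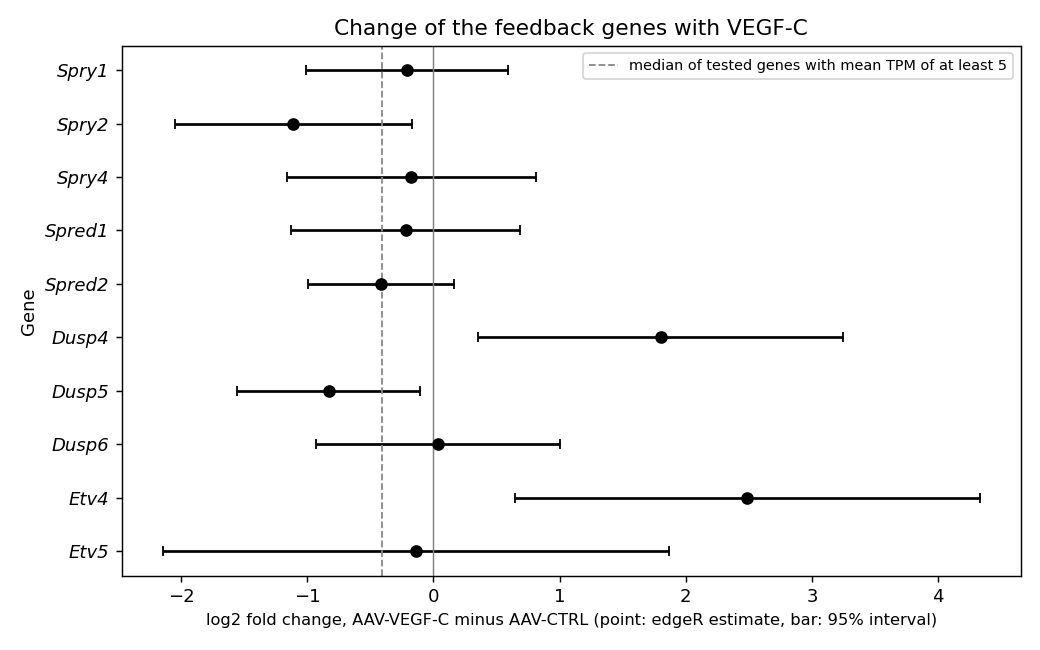
log2 fold change of each feedback gene, AAV-VEGF-C minus AAV-CTRL, with points at the edgeR estimate and bars for the 95% interval. The fit did not include experiment number. The bars of *Spry2*, *Dusp4*, *Dusp5* and *Etv4* do not reach 0, and the dashed line marks the median of -0.41 of tested genes averaging at least 5 TPM.

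The libraries of experiment 1 stood apart from the others in both groups. AAV-CTRL 1 and AAV-VEGF-C 1 had the fewest total counts of their groups (6530269 and 564475). Their background in CPM was also the highest of each group (293 and 7053 CPM). For 6 of the 10 feedback genes (*Spry1*, *Spry4*, *Spred1*, *Spred2*, *Dusp6* and *Etv5*) experiment 1 had the lowest TPM of its group on both sides, as for 38.7% of all tested genes. In TMM-scaled CPM this held for 4 (*Spry4*, *Spred1*, *Dusp6* and *Etv5*), against 19.2%. It also held in TPM for 10 of the 12 housekeeping genes, among them *Actb* (744, 1717 and 1465 TPM in AAV-CTRL against 130, 658 and 715 in AAV-VEGF-C). Low levels in experiment 1 were thus shared by many other genes. The part of depth or background in these low levels was not tested.

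Markers of several other cell types were low in experiment 1 as well. The summed TPM of 8 leukocyte markers was 16.1, 1617 and 1045 in AAV-CTRL against 11.6, 746 and 485 in AAV-VEGF-C. Among them *Csf1r*, the macrophage growth factor receptor, had 1.97, 450 and 253 TPM in AAV-CTRL against 5.92, 224 and 130 in AAV-VEGF-C. *Ptprc*, whose product CD45 the sort gated out, had 0.119, 25.7 and 23.2 TPM in AAV-CTRL against 0.337, 15.1 and 9.81 in AAV-VEGF-C. T and B cell markers were close to 0 (*Cd3e* 0 to 1.01 TPM, *Cd79a* 0.161 to 1.28 TPM).

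The summed blood endothelial markers were 85.8, 237 and 698 TPM in AAV-CTRL against 47.1, 97.8 and 81.5 in AAV-VEGF-C. The mural sums were 79.6, 101 and 260 against 11.9, 30.0 and 76.6, and the erythroid sums were 9.21, 132 and 182 against 0, 6.64 and 84.3. Fibroblast markers did not share this pattern (0 of 7 lowest in experiment 1 in both groups). Of 10 lymphatic markers, *Lyve1* and *Cdh5* were lowest there in both groups in TPM, while *Prox1* and *Ccl21a* were highest. The part of any of these cell types, or of other differences between the libraries, in the levels of the feedback genes was not tested. In the edgeR test without experiment 1, the log2 fold changes were -0.33 for *Etv5*, -0.40 for *Spred1* and -0.07 for *Dusp6*, and 0 of the 10 genes were called.

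**Figure D3:**
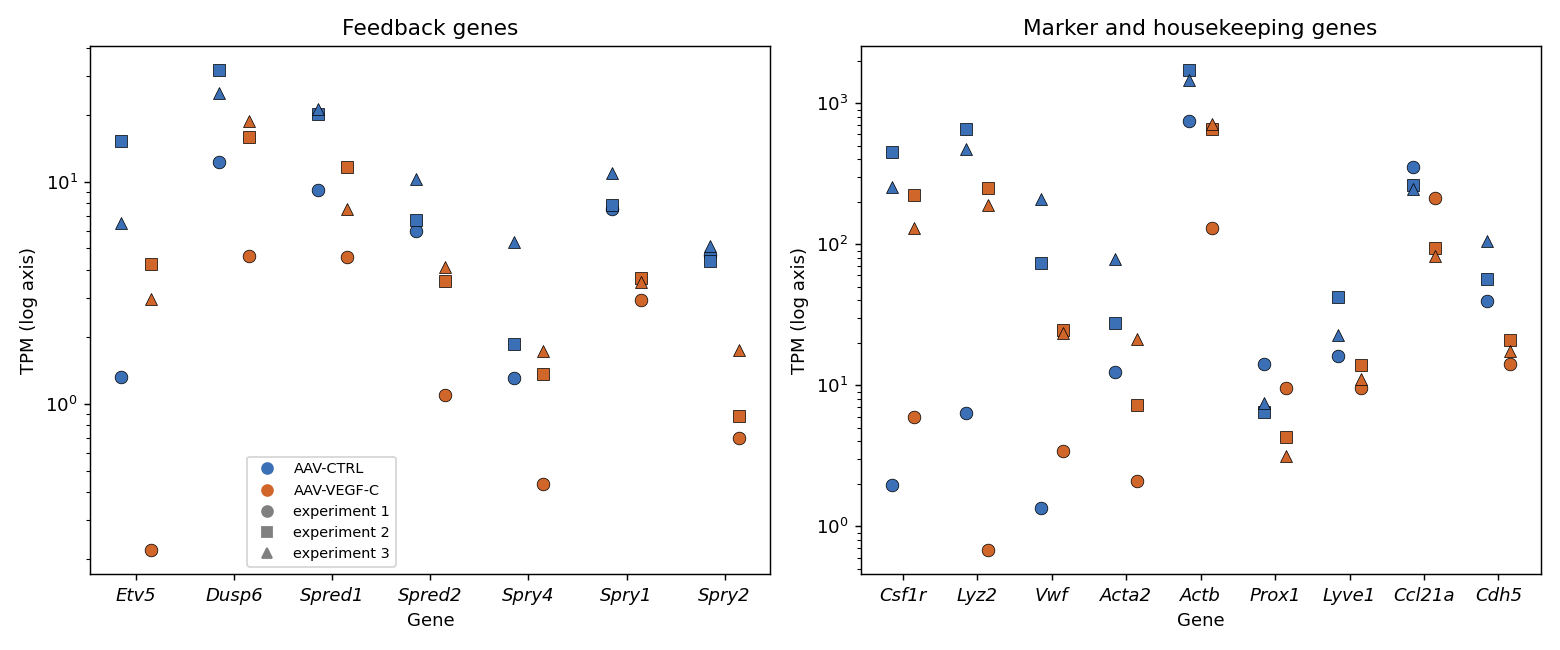
TPM (log axis) in each library of 7 feedback genes (left) and of leukocyte, blood endothelial, mural, housekeeping and lymphatic genes (right), with colour for the group and symbol shape for the experiment. The circles of experiment 1 lie lowest in each group for every gene on the left except *Spry2*. *Dusp4*, *Dusp5* and *Etv4* are not plotted, and for none of them was experiment 1 the lowest in both groups. On the right the circles lie lowest for *Csf1r*, *Lyz2*, *Vwf*, *Acta2*, *Actb*, *Lyve1* and *Cdh5*, but highest for *Prox1* and *Ccl21a*.

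Shares within a gene family do not depend on the scaling between libraries, so they were compared as well. Within the 3 DUSP genes, *Dusp4* took 2.35%, 1.57% and 1.75% of the summed TPM in AAV-CTRL against 15.3%, 5.45% and 2.91% in AAV-VEGF-C. *Dusp5* took 33.4%, 16.2% and 36.2% in AAV-CTRL against 13.7%, 15.4% and 13.2% in AAV-VEGF-C. Neither of these shares overlapped between groups, and for each the two-sided exact permutation test gave p = 0.1, its minimum at 3 libraries a group. *Dusp6* held most of the sum in every library, from 62.0% to 83.8% (exact permutation p = 0.3).

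Within the 3 Sprouty genes, *Spry2* took 34.6%, 31.1% and 23.9% in AAV-CTRL against 17.2%, 14.9% and 25.0% in AAV-VEGF-C, which overlapped (exact permutation p = 0.2), while shares of counts did not overlap (21.8%, 19.3% and 14.7% against 10.3%, 8.33% and 14.1%, exact permutation p = 0.1). *Etv4* took 45.4%, 0.804% and 2.97% of the pair with *Etv5* in AAV-CTRL against 90.4%, 20.4% and 54.5% with AAV-VEGF-C (exact permutation p = 0.2). In both groups experiment 1 had the lowest *Etv5* level and the highest *Etv4* share. The *Spred1* share of the SPRED pair was 60.4% to 75.1% in AAV-CTRL against 64.7% to 80.8% with AAV-VEGF-C (exact permutation p = 0.4).

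**Figure D4:**
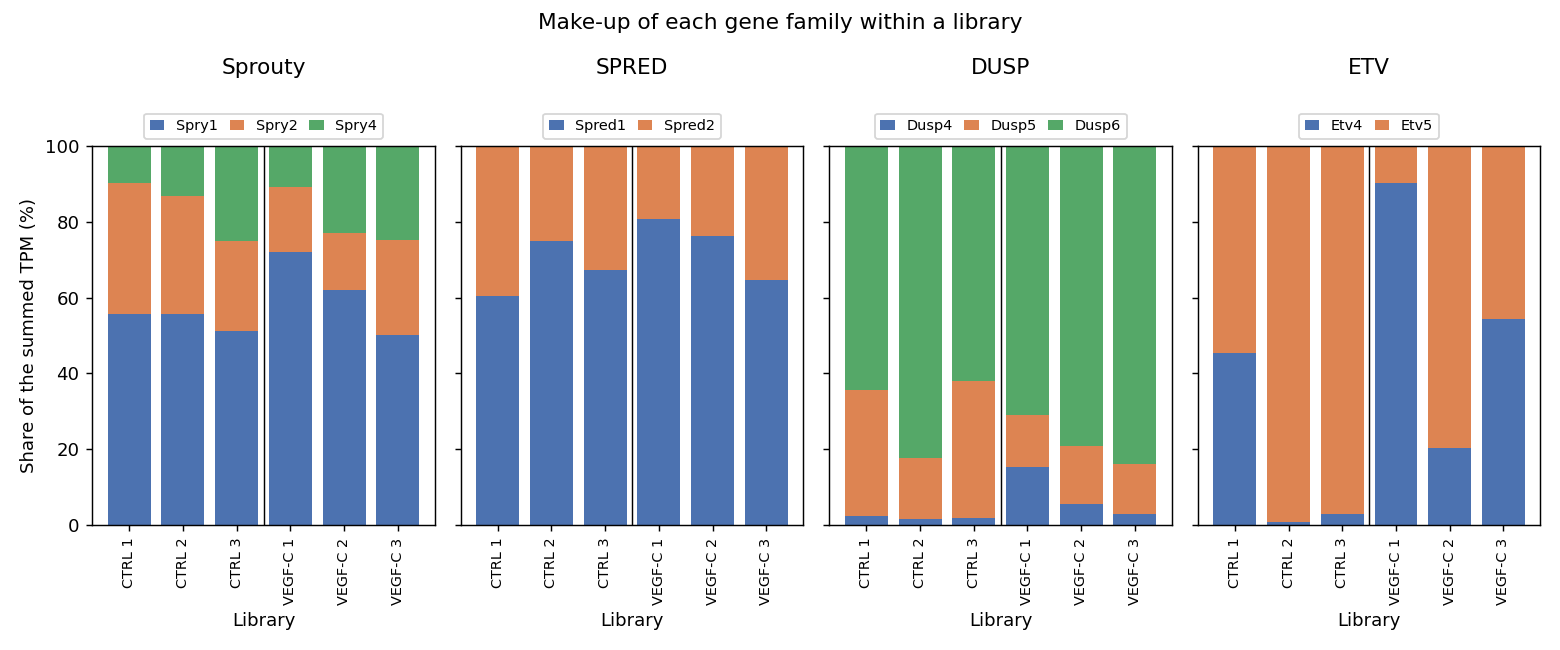
Share of the summed TPM (%) of the Sprouty, SPRED, DUSP and ETV genes held by each gene in each library, AAV-CTRL left and AAV-VEGF-C right of the line. The *Dusp4* share is larger in each AAV-VEGF-C library (2.91% to 15.3%) than in each AAV-CTRL library (1.57% to 2.35%).

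Genes that move alike were looked for as a description, without a test, since the 6 libraries share depth, group and experiment. Over the 6 libraries, the genes whose log2(TPM + 1) had the highest Pearson correlation with the mean of the feedback genes were *Cfl1* (r = 0.9993), *Sh3glb1* (0.9992), *Gnai2* (0.9992), *Cntrl* (0.9987) and *Gm22317* (0.9986). *Cfl1*, an actin-severing protein, had 69.8, 148 and 196 TPM in AAV-CTRL against 14.6, 52.0 and 58.5 in AAV-VEGF-C, the same order of libraries as the mean of the feedback genes. Among the 45 pairs of feedback genes, *Spred2* and *Dusp5* had the highest r (0.977), followed by *Spry1* with *Spry2* and with *Dusp5* (0.951 each) and *Dusp6* with *Etv5* (0.945). *Dusp4* and *Etv4* ran against the other 8 genes, with r from -0.83 to -0.21 for *Dusp4* and from -0.87 to -0.57 for *Etv4*.

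The other members of the same families were compared next. Of 9 other Sprouty, SPRED, MAP kinase phosphatase and ETV genes, 1 was called higher and 0 lower, against 10.5% and 0.659% of tested genes. Their median log2 fold change was 0.62 (*Spry3* is not analysed here). The gene called was *Dusp9*, a cytoplasmic MAP kinase phosphatase (edgeR adjusted p = 0.0236), on 3, 3 and 3 counts in AAV-CTRL against 4, 3 and 21 in AAV-VEGF-C. At such counts no fold is given. *Dusp9*, like *Etv4*, passed the count filter through the AAV-VEGF-C libraries alone, and it stayed called in 1 of the 6 fits that left out a library. Of all 16 alternative settings that tested *Dusp9*, 9 called it. *Dusp1*, the immediate early phosphatase that acts on JNK, p38 and ERK, was the most abundant gene of the list with 102, 308 and 212 TPM in AAV-CTRL against 32.6, 131 and 103 in AAV-VEGF-C (log2 change -0.29, adjusted p = 0.73). *Dusp7*, a relative of *Dusp6*, stood at 0.27 (adjusted p = 0.679) and *Spred3* at 0.84 (adjusted p = 0.196).

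Upstream of ERK, 0 of 11 ligand and receptor genes and 0 of 19 genes of the cascade were called in either direction. *Flt4* had 35.6, 19.3 and 26.0 TPM in AAV-CTRL against 18.3, 13.1 and 9.80 in AAV-VEGF-C (log2 change 0.35, SE 0.65, adjusted p = 0.774). Whether reads of the control vector, which carries part of VEGFR-3, or of the VEGF-C vector reached *Flt4* or *Vegfc* (log2 fold change -0.32, adjusted p = 0.757) was not tested. The median was -0.60 for the ligands and receptors, among which *Fgfr1* (-0.73, adjusted p = 0.254), *Nrp2* (1.11, 0.311), *Egfr* (-1.18, 0.0843) and *Fgf2* (-1.45, 0.0923) were named by level or smallest p. The cascade had a median of -0.45, with *Mapk3*, which encodes ERK1, at -0.85 (adjusted p = 0.11) and the adaptor *Shc1* at -0.46 (0.384). For 16 of its 19 genes every AAV-VEGF-C library lay below every AAV-CTRL library in TPM. This held for 36.4% of all tested genes and for 11 of the 12 housekeeping genes. Of 8 other RAS-ERK brakes 0 were called, with a median of -0.40, and *Lztr1* (-0.60, adjusted p = 0.189) and *Dab2ip* (-0.76, 0.143) were both the most abundant and those of smallest p.

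Downstream, 1 of 10 tested other ERK output genes was called lower and 0 higher, against 0.659% and 10.5% of all tested genes. Their median was -0.50 (*Fosl1* was not tested). *Errfi1*, a feedback inhibitor of the EGF receptor, fell (log2 fold change -1.21, SE 0.31, edgeR adjusted p = 0.0441), from 73.1, 62.2 and 69.0 TPM in AAV-CTRL to 6.95, 22.2 and 25.8 in AAV-VEGF-C, with no overlap. It was called in 0 of the 6 fits that left out a library, where its adjusted p was 0.0575 to 0.104, and in all 6 its direction was the same. Of all 19 alternative settings 6 called *Errfi1*. Its edgeR adjusted p was 0.14 scaled on the 2000 most abundant genes, 0.287 with background subtracted and 0.505 drawn down to the smallest library. The immediate early genes *Fos* (1245, 1740 and 1765 against 193, 624 and 621 TPM, log2 fold change -0.72, adjusted p = 0.262) and *Egr1* (-0.53, adjusted p = 0.43) were the most abundant, and *Epha4* was at -1.16 (adjusted p = 0.11). Of 7 endothelial ETS factors 0 were called, with a median of -0.23, *Ets2* at -0.23 (adjusted p = 0.807), *Elk3* at -0.41 (0.485) and *Elk4* at -0.69 (0.158).

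The lists of marker genes and of housekeeping genes gave the following log2 fold changes in the same edgeR test. Of 10 lymphatic markers 0 were called (median 0.18; *Ccl21a* 0.42, *Cdh5* -0.75, *Pecam1* -1.06). Of 6 blood endothelial markers 0 were called (median -1.18; *Plvap* -0.57, *Vwf* -1.49, *Esam* -1.59). Of 7 fibroblast markers 2 were called lower, *Dcn* (-1.69, adjusted p = 0.0287) and *Ogn* (-1.85, adjusted p = 0.0313), with a median of -1.16 and a summed TPM of 1066 to 2223 in AAV-CTRL against 264 to 874 in AAV-VEGF-C. Of 6 mural markers 0 were called (median -0.78; *Pdgfrb* -1.05), and of 7 tested leukocyte markers 0 (median -0.065). Of 6 Schwann and neural markers 2 were called higher, *Tubb3* (2.88, adjusted p = 0.0258) and *Sox10* (2.60, adjusted p = 0.0328), with a median of 0.87 and a summed TPM of 5.96 to 25.7 over the 6 libraries. Of all tested genes 10.5% were called higher and 0.659% lower. *Tubb3* reached the minimum of the count filter in 1 and *Sox10* in 2 AAV-CTRL libraries, and both did in all 3 AAV-VEGF-C libraries, so that each passed it with the help of the group where it was high. Of these 4 called markers, *Sox10* was also called in 1 of the 6 fits that left out a library and the others in 0. Over all alternative settings that tested them, *Dcn* and *Ogn* were each called in 8 of 19, *Sox10* in 8 of 18 and *Tubb3* in 7 of 17. None of them was called with background subtracted. Of 5 erythroid markers 0 were called (median -0.67), and *Hbb-bt* was at 0 in AAV-VEGF-C 1 and 2. Of 12 housekeeping genes 0 were called, with a median of -0.73, beside which the median of the feedback genes was -0.19.

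**Figure D5:**
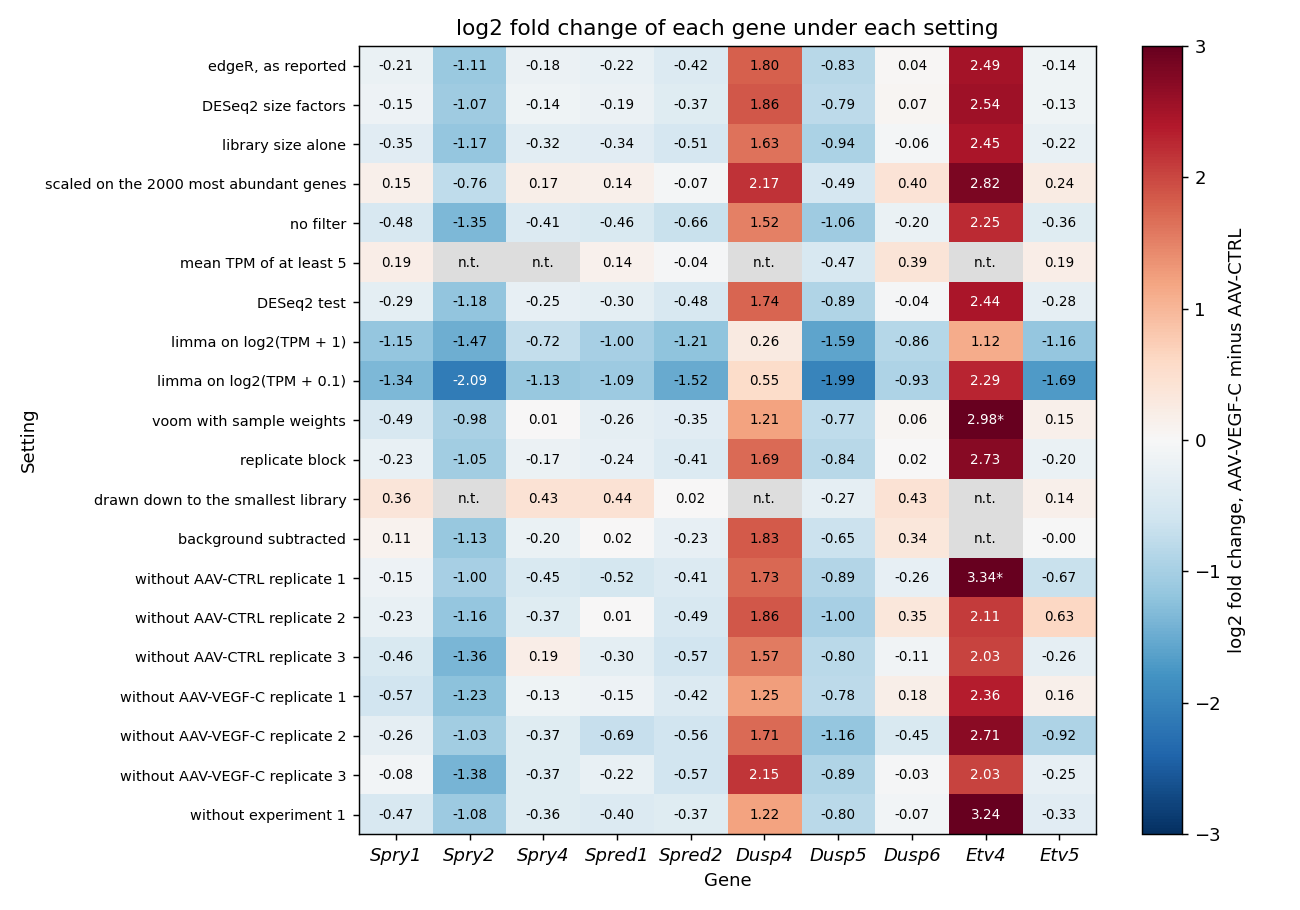
log2 fold change of each feedback gene (columns) under each setting (rows), AAV-VEGF-C minus AAV-CTRL, with an asterisk where the adjusted p was under 0.05 and n.t. where the gene was not tested. *Spry2* and *Dusp5* are below 0 and *Dusp4* and *Etv4* above 0 in every setting that tested them, and the asterisks are at *Etv4*.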

How the data were processed

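RNA of sorted dural LECs was measured in 6 libraries, made per the labels with the SMARTer Stranded Total RNA-Seq v3 Pico kit. The authors deposited 1 table of estimated counts, left unscaled, and 1 of TPM, corrected for gene length and library total. The submitters' processing notes name FastQC, Trimmomatic, DRAGEN, Picard and mm10. The counter, the annotation, and the use of strand and of molecular identifiers are not given in the sources used here. The 55401 gene identifiers were matched to GENCODE M21 (GRCm38), with 98.1% found including the version number and 99.5% ignoring it, so positions and exon lengths were taken from that annotation.

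Groups came from the sample titles. The estimated counts were rounded, filtered with filterByExpr (10 counts at the median library total in at least 3 libraries) and scaled by TMM. The groups were compared by the edgeR quasi-likelihood test (edgeR 4.0.16 in R 4.3.3), with Benjamini-Hochberg adjustment over all 17459 tested genes and a threshold of 0.05. Group was the only term of this test, so its SEs and intervals include the spread between experiments. DESeq2 (1.42.0), the tool of the study, served as an alternative, with limma 3.58.1 on log2(TPM + 1), log2(TPM + 0.1) and voom values. The script was tested on simulated data with the same dispersion for all genes. These held no difference in background between groups and no effect of experiment, so the simulation does not cover either. For shares within families, exact permutation tests (two-sided) were used. Wilson intervals are at 95% and, like all statements on depth (564475 to 12399498 counts), cover counting error only. Scaling, filters, depth, background, the replicate block and leaving out each library were varied as alternative settings. Leaving out experiment 1 was chosen after seeing the data.

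The replicate numbers mark repeats of the experiment per the sample titles. Deviations from the group means correlated across genes at 0.369, 0.28 and 0.155 for the libraries numbered 1, 2 and 3. Between different numbers the value ran from -0.395 to 0.216, the highest being AAV-CTRL 3 with AAV-VEGF-C 2, above that of the libraries numbered 3. The numbers were taken to pair the libraries because the titles tie them to the experiment. Each same-numbered value was over 0.1, but total counts rose with the number in both groups. These correlations thus cannot tell a shared experiment from a shared order of depth. All libraries of a group differed by more than sampling noise (chi-square at least 7.7 times its degrees of freedom). The titles do not say whether animals were shared between libraries, while the study's figure legend for this sort calls the experiments independent. The p-values measure the spread between these libraries.

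The members and the gene lists were chosen with earlier results of these data known. The genes named are all 10 members and genes drawn, from each other list, from the 2 with the highest mean TPM and the 2 with the smallest adjusted p, together with the 5 genes most alike over the 6 libraries. A gene that the rule names is not reported here. *Prox1*, *Lyve1*, *Flt4* and *Ptprc* were named as library checks, and *Fosl1*, *Hbb-bt*, *Spry3* and *Vegfc* were added after values were seen. Promoter stretches were taken from RefSeq for 7 of the 10 members, ending before the starts given by both RefSeq and GENCODE.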

Additional observations from a re-analysis of the deposited data

How the results depend on the processing

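Over the alternatives that tested them, *Spry2*, *Dusp5* (lower), *Dusp4* and *Etv4* (higher) kept their direction, and 0 of the 10 genes were called lower in any. The number called higher was 1 (*Etv4*) with voom and sample weights, and 0 to 1 when libraries were left out in turn, the 1 being without AAV-CTRL replicate 1. With experiment number as a replicate block 0 were called and no direction changed (*Etv4* 2.73, *Spry2* -1.05, *Dusp4* 1.69, *Dusp5* -0.84), while 2241 genes in all were called higher and 362 lower against 1835 and 115. Directions reversed as follows, as log2 fold changes, and the cause was not tested. Scaled on the 2000 most abundant genes, *Spry1* was 0.15, *Spry4* 0.17, *Spred1* 0.14 and *Etv5* 0.24. With a mean TPM of at least 5, *Spry1* was 0.19, *Spred1* 0.14 and *Etv5* 0.19. Drawn down to the smallest library, *Spry1* was 0.36, *Spry4* 0.43, *Spred1* 0.44, *Spred2* 0.018 and *Etv5* 0.14. With background subtracted, *Spry1* was 0.11 and *Spred1* 0.021. With voom, *Spry4* was 0.014 and *Etv5* 0.15. *Dusp6* was -0.063 by library size alone, -0.20 with no filter, -0.042 with DESeq2, -0.86 and -0.93 with limma at a TPM pseudocount of 1 and of 0.1, and -0.071 without experiment 1. Leaving out each library gave ranges of -0.45 to 0.19 for *Spry4*, -0.69 to 0.0067 for *Spred1*, -0.45 to 0.35 for *Dusp6* and -0.92 to 0.63 for *Etv5*. Over all genes, the number called higher ran from 0 (without AAV-CTRL replicate 2 or 3) to 9382 (no filter) and was 17 at the smallest depth and 11 with background subtracted. *Spry2*, *Dusp4* and *Etv4* were not tested at the smallest depth or, with *Spry4*, at a mean TPM of at least 5.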
